A study of Mus musculus with 6 samples.

Results

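In RNA from mouse pancreatic islets, 7 genes that bear on how mature a beta cell is were followed: Ucn3, Aldh1a3, Neurog3, Sox9, Hes1, Gast and Cd81. They were chosen by name, with earlier results of these data known, and all 7 were found among the 54532 genes of the deposited table. The libraries were 3 Bcas2 conditional knockout (cKO) and 3 control (genotype label wt) preparations, from islets with the cell type given as beta cell. BCAS2 is a subunit of the spliceosome-associated Prp19 complex, and the series title links it to insulin synthesis and secretion through splicing. The sources used here give no Cre driver, no deleted exons, no treatment and no strain, age or sex of the mice. Neither do the labels say that libraries came from separate animals, so each p-value reflects library-to-library spread alone, and that spread may be technical.

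Beta cells mature after birth, when they take on glucose-responsive insulin secretion and switch on late genes. Ucn3 encodes urocortin 3, a peptide of the corticotropin-releasing factor family that mature mouse beta cells co-release with insulin and that acts on delta cells to promote somatostatin release. In mouse diabetes models beta cells can lose this state, and genes of progenitors or of stressed beta cells appear. Aldh1a3, an enzyme of retinoic acid synthesis, Neurog3, the basic helix-loop-helix factor of endocrine progenitors, Gast, which encodes gastrin, and the tetraspanin gene Cd81 have been described in such cells. Sox9 marks pancreatic progenitors and adult duct cells, and Hes1 is the Notch target that represses Neurog3.

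Of the 7 genes, Ucn3 fell and Cd81 rose in Bcas2 cKO, and no difference passed the test for the other 5. Ucn3, Cd81, Hes1 and Neurog3 averaged at least 1 FPKM (reads scaled to gene length and to a depth set for each library). They entered the test, which covered 13723 genes with limma on log2(FPKM + 1). Over all of these, 6.97% rose and 7.55% fell at a Benjamini-Hochberg adjusted p under 0.05. These shares are the background for the counts of list and marker genes given below. When depth was rescaled with the hormone genes left out, 613 genes rose and 1247 fell, in place of 957 and 1036. Aldh1a3, Sox9 and Gast lay under the filter and were compared with a 2-sided exact permutation test, in which 3 against 3 libraries cannot give a p below 0.1.

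**Figure D1:**
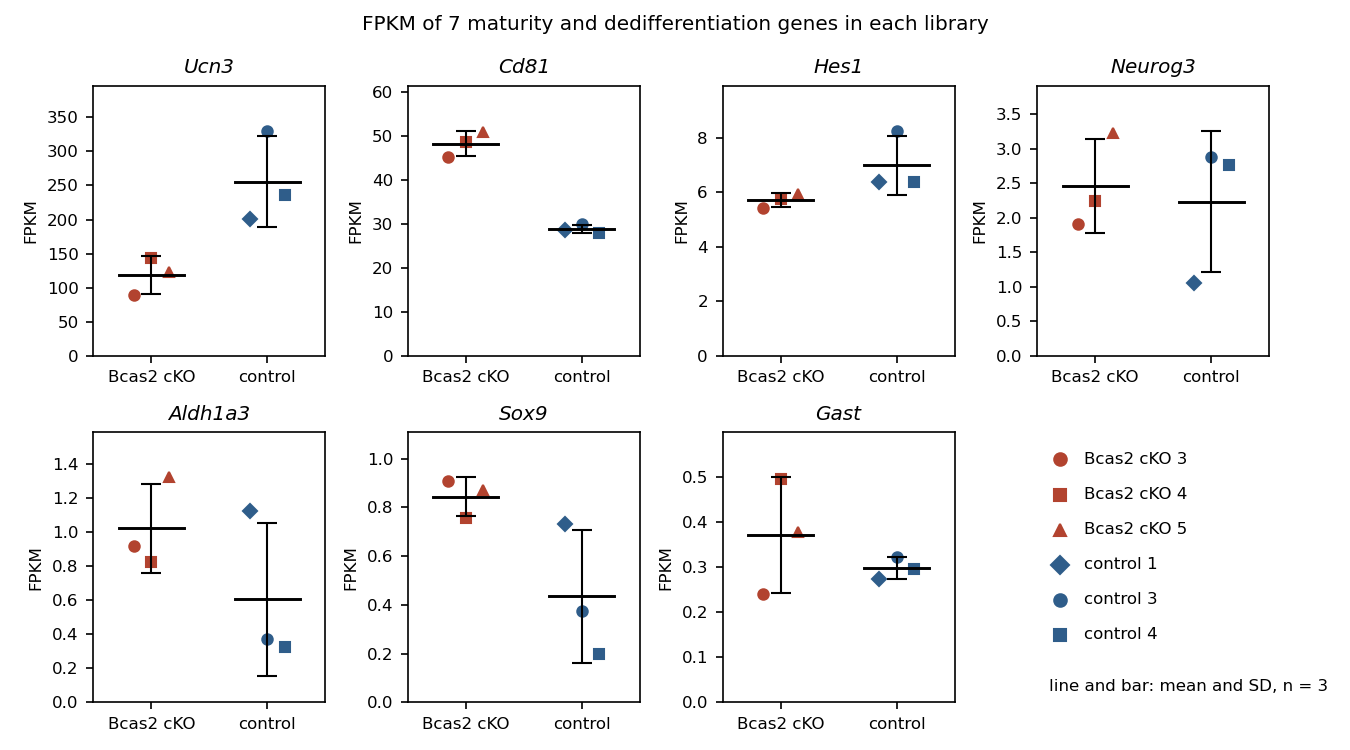
FPKM of each of the 7 genes (vertical axes, each from 0) in the 3 Bcas2 cKO libraries (red) and the 3 control libraries (blue), with 1 symbol per library number and the mean and SD (n = 3) in black. Ucn3 is lower and Cd81 higher in every Bcas2 cKO library than in any control library, while Aldh1a3, Neurog3 and Gast overlap between the groups.

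The sequences just upstream of the 2 genes that changed are shown because these genes moved in opposite directions. They are the 250 bases before the RefSeq start in GRCm38.p6, read 5′ to 3′ on the gene's strand. The Ucn3 window is chr13:3945350-3945599 on the minus strand, and the Cd81 window is chr7:143052500-143052749 on the plus strand. Capitals mark E boxes (CANNTG, the core bound by basic helix-loop-helix factors) in Ucn3 and GC boxes (GGGCGG) in Cd81, searched on both strands.
Ucn3: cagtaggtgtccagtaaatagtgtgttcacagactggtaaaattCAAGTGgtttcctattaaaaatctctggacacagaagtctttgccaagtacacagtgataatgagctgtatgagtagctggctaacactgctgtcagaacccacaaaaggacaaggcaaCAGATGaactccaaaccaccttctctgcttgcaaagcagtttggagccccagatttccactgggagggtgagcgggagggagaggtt
Cd81: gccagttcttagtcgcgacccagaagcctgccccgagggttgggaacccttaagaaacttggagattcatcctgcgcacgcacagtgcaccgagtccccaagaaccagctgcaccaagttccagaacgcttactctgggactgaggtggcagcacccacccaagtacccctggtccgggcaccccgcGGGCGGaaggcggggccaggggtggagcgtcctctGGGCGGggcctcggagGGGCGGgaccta
The Ucn3 window held 2 E boxes, no GC box and no TATAAA, and its GC content was 46.4%. The Cd81 window held 3 GC boxes, 1 E box and no TATAAA, with a GC content of 65.6%. Among 32851 upstream windows of this length 66.2% held an E box and 32.7% a GC box, so these matches are descriptions only.

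Bcas2 itself, the targeted gene, had 8.76, 8.40 and 9.14 FPKM in Bcas2 cKO libraries 3, 4 and 5, against 10.3, 15.04 and 11.2 FPKM in control libraries 1, 3 and 4. The log2 fold change was -0.42 (SE 0.13, limma adjusted p 0.083), which is no call. The groups did not overlap, as in 38% of tested genes in either direction. A call appeared in 1 of 6 fits with a library left out (limma adjusted p 0.049) and in 2 of 9 other settings. It did not appear in the replicate block fit (limma adjusted p 0.11). Recovered reads on genes came to 16351800 to 16904326 per Bcas2 cKO library and 15170439 to 15594871 per control library. Defining beta cell markers were present in all libraries: the 9 genes of that list took 14.6 to 16.0% of reads in Bcas2 cKO and 20.5 to 28.7% in control. The labels number the Bcas2 cKO samples 1, 3 and 4, whereas the table's columns are numbered 3, 4 and 5, so library 5 belongs to the group without a sample label of its own.

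Ucn3 (ENSMUSG00000044988, chromosome 13, 3940688 to 3945349, minus strand, GRCm38) had 89.2, 144 and 124 FPKM in Bcas2 cKO libraries 3, 4 and 5, against 201, 329.9 and 237 FPKM in control libraries 1, 3 and 4. The highest Bcas2 cKO value lay below the lowest control value, and 38% of tested genes had groups without overlap in either direction. The means were 119 ± 27.5 FPKM in Bcas2 cKO and 256 ± 66.7 FPKM in control (SD, n = 3 each), a ratio of 0.465. The log2 fold change was -1.09 (SE 0.24, limma adjusted p 0.026), and 77 genes in all fell at least as far and passed. These values rest on 2392, 3734 and 3156 reads in Bcas2 cKO and 4703, 6582 and 5136 reads in control, so counting error is small beside the spread between libraries. Ucn3 ranked 209th of all genes by mean FPKM in Bcas2 cKO and 81st in control.

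The call of Ucn3 was not stable to the choice of libraries. With Bcas2 cKO library 3 or 5 left out the limma adjusted p was 0.073 or 0.071. With control library 3 or 4 left out it was 0.058 or 0.074, and the log2 fold change lay between -1.25 and -0.90 in all 6 leave-one-out fits. The call was also lost when all genes above 0 were tested (limma adjusted p 0.078). Relative to the other markers of its cell type the gene was also lower: set against the mean log2 level of the 9 beta cell markers within each library, Ucn3 stood at -3.28 ± 0.27 in Bcas2 cKO and -2.64 ± 0.26 in control (SD, n = 3 each). That difference of -0.65 had no overlap between groups (2-sided exact permutation p = 0.1). In bulk RNA, fewer cells of a type and less RNA per cell cannot be told apart.

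**Figure D2:**
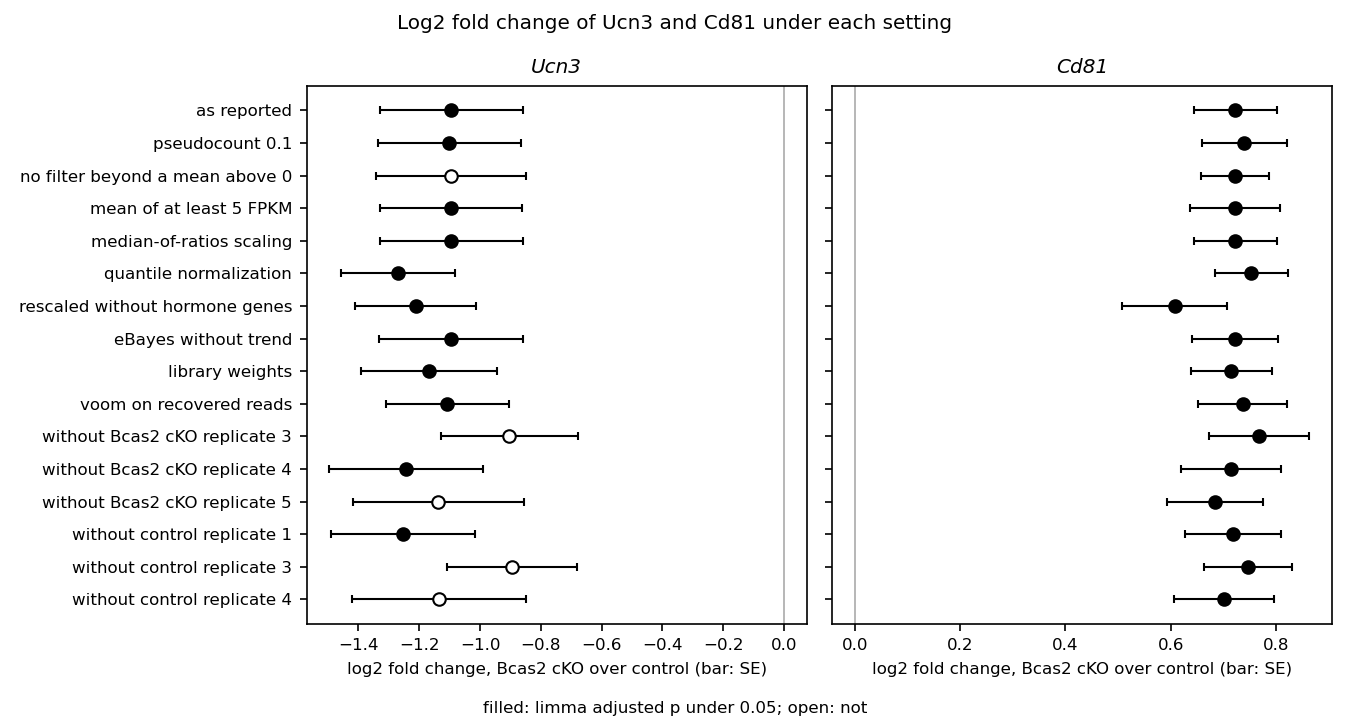
Log2 fold change of Ucn3 (left) and Cd81 (right), Bcas2 cKO over control, with SE bars. Rows give the fit as reported, each alternative setting except the replicate block, and each fit with 1 library left out. The median-of-ratios row repeats the fit as reported. Filled points have a limma adjusted p under 0.05. Ucn3 keeps its direction in every row, from -0.90 to -1.27, with 5 open points, whereas Cd81 is filled in every row, from 0.61 to 0.77. In the replicate block fit, not drawn, neither passed: Ucn3 was at -1.30 (limma adjusted p 0.091) and Cd81 at 0.68 (limma adjusted p 0.074). The fold changes of that fit rest on libraries 3 and 4 of each group only.

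By library, the pattern of Ucn3 was closest to those of CT010467.1, an rRNA gene, Prrt1, a proline-rich transmembrane protein gene, and Ins2, among 4352 other genes averaging 10 FPKM or more. Their centred log2 profiles over the 6 libraries differed from that of Ucn3 by 0.079, 0.087 and 0.14 on average. Ins2 had 63980, 77180 and 76612 FPKM in Bcas2 cKO libraries 3, 4 and 5, against 100267, 170433 and 135003 FPKM in control libraries 1, 3 and 4. The order of the libraries within control, 3 above 4 above 1, was the same for Ucn3 and Ins2, and in both genes Bcas2 cKO library 3 was the lowest of the 6.

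The receptors of this peptide family were expressed at low levels. Crhr1, the corticotropin-releasing factor receptor that beta cells carry, had 0.43, 0.19 and 0.50 FPKM in Bcas2 cKO libraries 3, 4 and 5, against 1.999, 2.08 and 2.16 FPKM in control libraries 1, 3 and 4. It fell by 1.18 on the log2 scale (SE 0.15, limma adjusted p 0.0049), on 19, 8 and 21 reads in the Bcas2 cKO libraries, against 78, 69 and 78 reads in the control libraries. Crhr2, the urocortin 3 receptor of delta cells, lay under the filter at 0.43 to 0.53 FPKM in Bcas2 cKO and 0.17 to 0.48 FPKM in control. Sst, the delta cell hormone whose release urocortin 3 promotes, was 4612 ± 738 FPKM in Bcas2 cKO and 5597 ± 1721 FPKM in control (SD, n = 3 each), with overlapping groups (limma adjusted p 0.63 for a log2 fold change of -0.24). Of the 6 tested genes of this pathway list other than Ucn3, 2 fell and none rose, the second being the somatostatin receptor gene Sstr3 (47.0 ± 6.10 FPKM in Bcas2 cKO and 75.9 ± 0.239 FPKM in control).

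Other genes of mature beta cells were lower too. Of the 27 other members of the maturity list, all above the filter, 12 fell and none rose, and their median log2 fold change was -0.43, beside -0.026 over all tested genes. Of all tested genes 7.55% fell and 6.97% rose. The list was chosen with earlier results of these data known, so its count describes these genes and is no independent support. Trpm5, a cation channel of beta cells, fell to 3.35 ± 0.56 FPKM in Bcas2 cKO, against 30.9 ± 2.18 FPKM in control. Cox6a2, a cytochrome c oxidase subunit, fell to 35.2 ± 8.42 FPKM in Bcas2 cKO, against 105 ± 31.1 FPKM in control, and Ffar1, a fatty acid receptor, to 22.6 ± 1.63 FPKM, against 43.9 ± 12.3 FPKM in control (SD, n = 3 each). Beta cell transcription factors on the list went both ways. Foxa2 and Esrrg fell (log2 fold changes -0.80 and -0.55), and Pdx1 and Nkx6-1 were at -0.22 and -0.17 without a call. Neurod1 was 89.9 ± 7.87 FPKM in Bcas2 cKO and 81.7 ± 8.89 FPKM in control, and Mafa, a factor of mature beta cells, was 349 ± 84.1 FPKM in Bcas2 cKO and 228 ± 37.1 FPKM in control. Neither passed the test (limma adjusted p 0.44 and 0.090).

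The number of list genes that fell, 13 with Ucn3, was 7 without any one of the Bcas2 cKO libraries, 6 without control library 4, 9 without control library 3 and 12 without control library 1, and it was 7 when all genes above 0 were tested. Trpm5 kept its call in all 6 of these fits. Cox6a2 lost its call without control library 4 (limma adjusted p 0.055), and Ffar1 lost its call in 4 of the 6 fits. The 9 beta cell markers are all on the maturity list too, so their sum is no second observation. That sum separated the groups, at 108798 to 128618 FPKM in Bcas2 cKO and 165905 to 265197 FPKM in control. Of these 9 markers 2 fell and none rose. Ins1 and Ins2, the largest terms, were not called (limma adjusted p 0.44 and 0.38). The part of beta cells in the lower Ucn3 and list values was not tested.

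**Figure D3:**
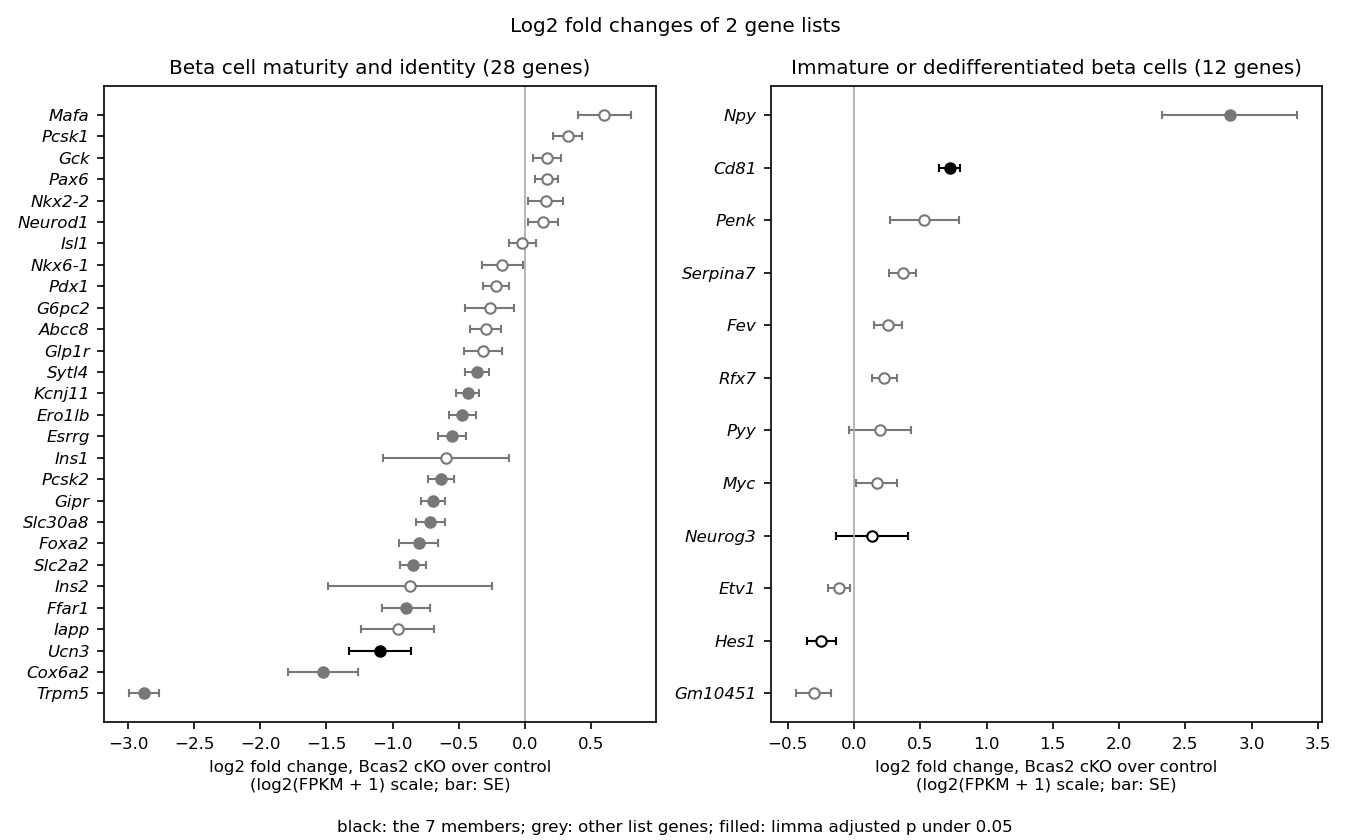
Log2 fold change, Bcas2 cKO over control, with SE bars, for the 28 tested genes of the maturity list (left) and 12 of the 13 tested genes of the immature or dedifferentiated list (right), sorted by value. Black points are the followed genes that were tested, Ucn3 on the left and Cd81, Hes1 and Neurog3 on the right. Aldh1a3, Sox9 and Gast were under the filter and are not drawn. Grey points are the other list genes, and filled points have a limma adjusted p under 0.05. On the left 13 filled points lie below 0 and none above, and on the right the filled points are Npy and Cd81.

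Cd81 (ENSMUSG00000037706, chromosome 7, 143052739 to 143067934, plus strand), a 4-span membrane protein of the tetraspanin family, was the gene that rose. It had 45.1, 48.6 and 50.9 FPKM in Bcas2 cKO libraries 3, 4 and 5, against 28.6, 29.8 and 27.9 FPKM in control libraries 1, 3 and 4. The groups were far apart relative to their spread, with means of 48.2 ± 2.89 FPKM in Bcas2 cKO and 28.8 ± 0.97 FPKM in control (SD, n = 3 each) and a ratio of 1.67. Its log2 fold change was 0.72 (SE 0.079, limma adjusted p 0.0033), and 479 genes in all rose at least as far and passed. With 1 library left out the adjusted p ranged from 0.0090 to 0.019 and the log2 fold change from 0.68 to 0.77, so the call held in all 6 fits. The antisense transcript R74862 shares 104 exon bases, 3.61% of those of Cd81, at 1.02 FPKM in Bcas2 cKO and 1.58 FPKM in control, and the sources used here do not say whether counting used strand.

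Cd81 is expressed by many cell types of the islet and its surroundings. Set against the mean log2 level of the 9 beta cell markers, it stood at -4.54 ± 0.032 in Bcas2 cKO and -5.72 ± 0.078 in control (SD, n = 3 each, 2-sided exact permutation p = 0.1). Of the marker lists of other cell types, the summed acinar markers were 16206 to 49222 FPKM in Bcas2 cKO and 5568 to 12946 FPKM in control (10 of 23 tested markers rose, none fell). Summed duct markers were 553 to 719 FPKM in Bcas2 cKO and 264 to 305 FPKM in control (2 of 10 tested rose, none fell). Krt8 was the largest term of the duct sum, while the duct keratin Krt7 was lower without a call (log2 fold change -0.36, limma adjusted p 0.058). Summed macrophage and lymphocyte markers overlapped at 119 to 143 FPKM in Bcas2 cKO and 97.7 to 123 FPKM in control (5 of 9 tested rose, none fell), but their share of reads did not overlap, at 0.0179 to 0.0229% in Bcas2 cKO and 0.0128 to 0.0149% in control. Alpha cell markers overlapped in summed FPKM but took 3.64 to 4.27% of reads in Bcas2 cKO and 2.93 to 3.10% in control, without overlap (2 of 8 tested rose, none fell). None of the genes on these 4 lists was at 0 in every library. The part of these cells in the Cd81 difference was not tested. Nerve and Schwann cell markers summed to 17.6 to 25.8 FPKM in Bcas2 cKO and 27.8 to 35.1 FPKM in control (1 of 5 tested rose and 2 fell), and the part of those cells was not tested either.

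**Figure D4:**
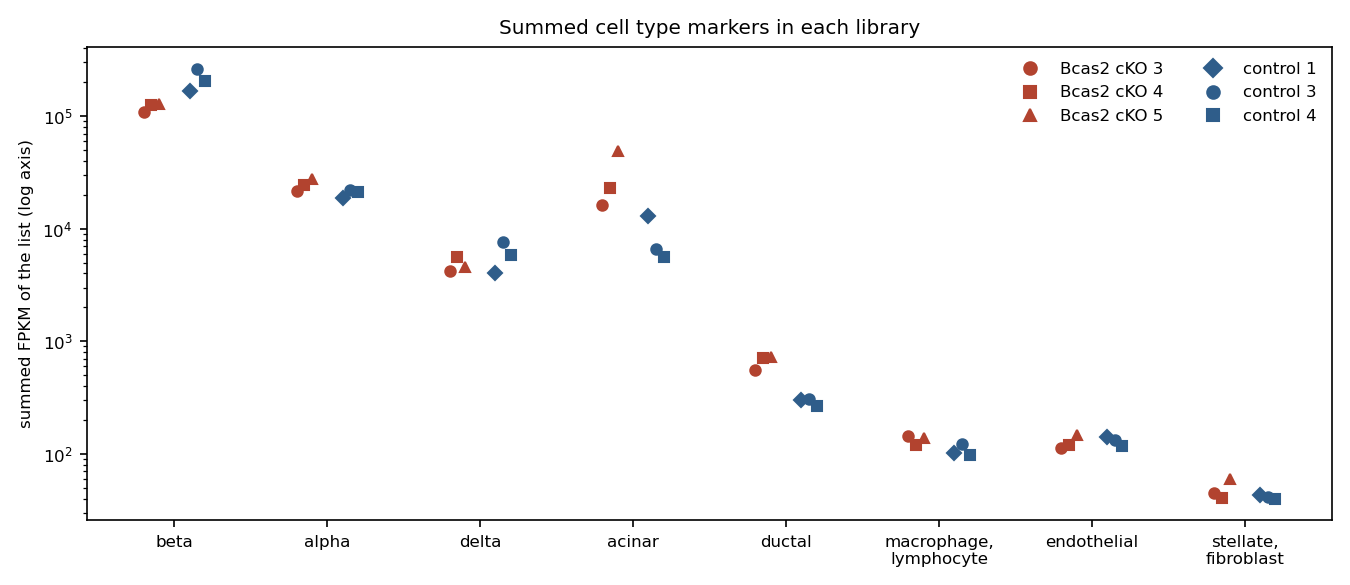
Summed FPKM (log axis) of 8 cell type marker lists in the Bcas2 cKO libraries (red, left of each pair) and the control libraries (blue), with 1 symbol per library number. The beta cell sum is lower and the acinar and duct sums are higher in every Bcas2 cKO library than in any control library, and the other 5 lists overlap. Krt8 is the largest term of the duct sum.

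Of the 21 other tested tetraspanin genes, 1 rose and 5 fell, with a median log2 fold change of -0.015. Of all tested genes 6.97% rose and 7.55% fell. Tspan5 fell by 0.63 on the log2 scale to 14.2 ± 1.58 FPKM in Bcas2 cKO, against 22.4 ± 0.96 FPKM in control, and Tspan13 fell by 0.61 to 55.4 ± 1.58 FPKM, against 85.1 ± 5.52 FPKM in control (SD, n = 3 each). Cd9, its close relative, was 9.25, 11.1 and 8.03 FPKM in Bcas2 cKO and 8.36, 7.97 and 7.09 FPKM in control, with overlap and no call (limma adjusted p 0.23). The riser was Tspan14 (log2 fold change 0.54), whose call was lost in 5 of the 6 leave-one-out fits. The number that fell was 2 without Bcas2 cKO library 3 or control library 4, 3 without Bcas2 cKO library 4 or 5 or control library 3, and 4 without control library 1. Of 9 tested genes for partners of CD81, Ifitm1 and Itga6 rose by 0.94 and 0.62, and Igsf8, a direct binding partner, fell by 0.45. Those 3 calls were lost in 4, 5 and 5 of the 6 leave-one-out fits in that order. Another binding partner gene, Ptgfrn, lay under the filter at 0.72 to 0.96 FPKM in Bcas2 cKO and 0.66 to 0.77 FPKM in control.

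Hes1 (ENSMUSG00000022528, chromosome 16, 30064384 to 30067796, plus strand) was slightly lower and did not pass the test. It had 5.44, 5.77 and 5.95 FPKM in Bcas2 cKO libraries 3, 4 and 5, against 6.38, 8.26 and 6.38 FPKM in control libraries 1, 3 and 4. The groups did not overlap, but control libraries 1 and 4 lay within 1 FPKM of the Bcas2 cKO values and control library 3 accounted for much of the gap. The log2 fold change was -0.24 (SE 0.11, limma adjusted p 0.17), and it was -0.14 without control library 3.

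Of 42 other tested genes of the Notch pathway 2 rose and 2 fell, with a median of -0.069, beside 6.97% of all tested genes that rose and 7.55% that fell, so these counts do not set the pathway apart. The receptor gene Notch3 rose by 0.54 on the log2 scale and the corepressor gene Tle4 by 0.51, while Psenen, a gamma-secretase subunit, fell by 0.39 and Tle2 by 0.32. All 4 lost their calls in 5 or 6 of the leave-one-out fits. The receptor Notch1 was 7.27 ± 0.24 FPKM in Bcas2 cKO and 5.08 ± 1.19 FPKM in control, with no overlap and no call (limma adjusted p 0.081). The ligand genes Jag1 (log2 fold change 0.036) and Dll1 (0.24) and the transcription factor gene Rbpj (0.062), through which Notch acts on Hes1, did not pass either, and the signs for Jag1 and Rbpj turned when depth was rescaled with the hormone genes left out.

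Neurog3 (ENSMUSG00000044312, chromosome 10, 62133090 to 62134763, plus strand), which HES1 represses in the embryonic pancreas, overlapped between groups. It had 1.91, 2.24 and 3.22 FPKM in Bcas2 cKO libraries 3, 4 and 5, against 1.05, 2.88 and 2.77 FPKM in control libraries 1, 3 and 4. Control library 1 was the lowest and Bcas2 cKO library 5 the highest, and both groups spanned most of the range. The log2 fold change of 0.14 (SE 0.27, limma adjusted p 0.77) rests on 58 to 93 reads per Bcas2 cKO library and 28 to 68 per control library. Neurog3 lies within the gene Fam241b on the opposite strand, whose exons cover 273 of its exon bases (16.3%), and Fam241b was 6.10 FPKM in Bcas2 cKO and 5.97 FPKM in control, and reads in the shared stretch cannot be told apart without strand.

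Of the 20 other tested genes of the endocrine progenitor list, 2 rose and 1 fell, with a median log2 fold change of 0.00050. Over all tested genes 6.97% rose and 7.55% fell, so these counts do not set the list apart. The risers were Cdkn1a, the p21 cell cycle inhibitor, which averaged 30.5 ± 5.41 FPKM in Bcas2 cKO and 7.30 ± 1.52 FPKM in control, and Gata6 (log2 fold change 0.62), a transcription factor of pancreas development. Foxa2, a forkhead factor of endoderm and beta cells, fell to 30.7 ± 2.63 FPKM in Bcas2 cKO, against 54.8 ± 10.3 FPKM in control (SD, n = 3 each). Its call was lost without Bcas2 cKO library 3 (limma adjusted p 0.052) or 4 (0.059), and that of Gata6 in 5 of the 6 fits. Pax4, a Neurog3 target of the embryonic beta cell lineage, was listed at 0 in 5 of the 6 libraries.

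Sox9 (ENSMUSG00000000567, chromosome 11, 112782224 to 112787760, plus strand) had 0.91, 0.76 and 0.87 FPKM in Bcas2 cKO libraries 3, 4 and 5, against 0.73, 0.38 and 0.20 FPKM in control libraries 1, 3 and 4. Every Bcas2 cKO value lay above every control value, as in 12.3% of genes under the filter in either direction, but control library 1 lay just below Bcas2 cKO library 4. In reads these were 68, 55 and 62 in Bcas2 cKO, against 48, 21 and 12 in control. The 2-sided exact permutation p was 0.1, the smallest possible, and the limma adjusted p with no filter was 0.29. When depth was rescaled with the hormone genes left out, the groups overlapped.

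Of 17 tested genes of the Sox9, duct and progenitor list 1 rose and 1 fell, which were Cyr61, a matricellular protein gene (27.7 ± 5.94 FPKM in Bcas2 cKO and 10.1 ± 0.68 FPKM in control, SD, n = 3 each), and Foxa2. Over all tested genes 6.97% rose and 7.55% fell, so these counts do not set the list apart. Duct cells also express Sox9, and their markers did not move evenly. Krt8, a keratin, rose to 289 ± 69.7 FPKM in Bcas2 cKO, against 83.6 ± 19.9 FPKM in control, and was the largest term of the duct sum. Krt19, a defining duct keratin, had 2.05, 1.10 and 1.38 FPKM in Bcas2 cKO, against 1.05, 0.92 and 1.03 FPKM in control, and did not pass (limma adjusted p 0.25). Krt7, another duct keratin, was lower, at 22.8, 23.2 and 20.4 FPKM in Bcas2 cKO, against 31.0, 30.1 and 25.3 FPKM in control, without overlap and without a call (log2 fold change -0.36, limma adjusted p 0.058). The chloride channel Cftr lay at 0.37, 0.23 and 0.23 FPKM in Bcas2 cKO, against 0.049, 0.0095 and 0 FPKM in control. The part of duct cells in the Sox9 values was not tested.

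Aldh1a3 (ENSMUSG00000015134, chromosome 7, 66390890 to 66427517, minus strand) had 0.92, 0.82 and 1.32 FPKM in Bcas2 cKO libraries 3, 4 and 5, against 1.12, 0.37 and 0.32 FPKM in control libraries 1, 3 and 4. The groups overlapped, because control library 1 exceeded Bcas2 cKO libraries 3 and 4. This spread within control was beyond counting error: control library 1 held 82 reads (95% exact Poisson interval 65.2 to 102) and control library 3 held 23 (14.6 to 34.5), intervals that cover counting error only. The 2-sided exact permutation p was 0.3, and the limma adjusted p with no filter was 0.48. Control library 1 also had the highest acinar sum of the controls, 12946 FPKM against 6598 and 5568 FPKM in control libraries 3 and 4, and Bcas2 cKO library 5, the highest in Aldh1a3, had the highest of all, at 49222 FPKM. Bcas2 cKO libraries 3 and 4, at 16206 and 22966 FPKM, had higher acinar sums than control library 1 but lower Aldh1a3. The part of acinar RNA in Aldh1a3 was not tested.

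Genes with profiles most like that of Aldh1a3 were the histone deacetylase gene Hdac1 and the matrix genes Sparcl1 and Sparc, whose centred log2 profiles differed from it by 0.058, 0.073 and 0.10 on average over the 6 libraries. None of the 3 passed the test. The likeness holds on the log2(FPKM + 1) scale only, which flattens a gene at 0.32 to 1.32 FPKM. In FPKM, the Bcas2 cKO mean over the control mean was 1.69 for Aldh1a3 and 1.25, 1.28 and 1.22 for Hdac1, Sparcl1 and Sparc. The relatives of Aldh1a3 in retinoic acid synthesis were lower still: Aldh1a1 had 0.65, 0.56 and 0.71 FPKM in Bcas2 cKO, against 0.29, 0.24 and 0.18 FPKM in control, without overlap, and Aldh1a2 did not exceed 0.25 FPKM in any library. Of 10 tested genes of the retinoic acid list 1 rose, the retinol dehydrogenase gene Rdh5 (log2 fold change 0.53, a call lost in 5 of 6 leave-one-out fits), and none fell. Of 12 tested aldehyde dehydrogenase genes, Aldh3b1 and Aldh9a1 rose by 0.82 and 0.53, and Aldh1l2, a mitochondrial folate enzyme, fell by 1.01. The counts of both lists stand beside 6.97% of all tested genes that rose and 7.55% that fell. Aldh3b1 lost its call in 5 of the 6 fits, and Aldh1l2 lost its call without Bcas2 cKO library 4 (limma adjusted p 0.053) or 5 (0.052).

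Gast (ENSMUSG00000017165, chromosome 11, 100334407 to 100336996, plus strand) was at the limit of detection in both groups, with 2, 4 and 3 reads in Bcas2 cKO libraries 3, 4 and 5, against 2, 2 and 2 reads in control libraries 1, 3 and 4. At its gene length of 460 bases these were 0.24, 0.49 and 0.38 FPKM in Bcas2 cKO, against 0.27, 0.32 and 0.30 FPKM in control, and 3 reads were worth 0.36 to 0.48 FPKM depending on the library. A difference was not detectable at this depth. The gastrin and cholecystokinin receptor gene Cckar, also an acinar cell gene, was 2.22, 1.94 and 5.40 FPKM in Bcas2 cKO, against 1.63, 0.46 and 0.68 FPKM in control, and it was not called (limma adjusted p 0.083, log2 fold change 1.08). Cckbr, the receptor with high affinity for gastrin, did not exceed 0.14 FPKM in any library. Of 5 tested genes of the gastrin and cholecystokinin list none rose and 1 fell, the prohormone convertase gene Pcsk2 (274 ± 11.9 FPKM in Bcas2 cKO and 424 ± 1.96 FPKM in control, SD, n = 3 each).

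Among the other genes on the list of immature or dedifferentiated beta cells, 10 were tested, of which Npy rose and none fell, with a median of 0.24. Over all tested genes 6.97% rose and 7.55% fell, with a median of -0.026. Npy, a neuropeptide of immature beta cells, had 115, 135 and 256 FPKM in Bcas2 cKO libraries 3, 4 and 5, against 9.36, 28.1 and 36.2 FPKM in control libraries 1, 3 and 4. Its log2 fold change was 2.83 (SE 0.51, limma adjusted p 0.015), and the call held without each library in turn. The pluripotency genes Nanog and Pou5f1 did not exceed 0.13 FPKM in any library.

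Genes that beta cells normally keep low, the disallowed genes, were mostly under the filter or uncalled: of 10 tested, 3 rose and none fell. Of all tested genes 6.97% rose and 7.55% fell. Zfp36l1, an RNA-binding protein gene, rose by 0.83 on the log2 scale, Arhgdib by 0.73 and the transglutaminase gene Tgm2 by 0.52. With Bcas2 cKO library 3 left out 0 of them rose (limma adjusted p 0.053 for Zfp36l1), and Arhgdib and Tgm2 each lost their calls in 5 of the 6 leave-one-out fits. After depth was rescaled with the hormone genes left out, 1 rose. Of 11 other tested basic helix-loop-helix genes of the Hes, Id and Neurod families, Tcf3, the E protein partner of Neurog3 and Neurod1, rose to 19.4 ± 1.60 FPKM in Bcas2 cKO, against 11.1 ± 0.91 FPKM in control, and Id2, an inhibitor of such partners, rose by 0.66. Tcf3 kept its call in all 6 fits, and Id2 lost its call in 5.

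By level per length, the 7 genes ran Ucn3, Cd81, Hes1, Neurog3, Aldh1a3, Sox9 and Gast in both groups. Ucn3 exceeded Cd81 by 2.47-fold in Bcas2 cKO and 8.88-fold in control, and in each group the ranges of the 4 highest genes were separate. In Bcas2 cKO the neighbours Aldh1a3 and Sox9 overlapped in range, and in control Neurog3 and Aldh1a3, Aldh1a3 and Sox9, and Sox9 and Gast each overlapped.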

How the data were processed

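Islet RNA was extracted with Trizol and made into libraries with the SMARTer kit for mRNA-seq, per the labels' protocols, and the genome build was GRCm38 (mm10), per the submitters' processing notes. The sources used here name no aligner, counter or strand setting. The authors deposited 1 table of FPKM, with 1 column per library. Gene lengths in it equal the exon lengths of GENCODE M21 for all 7 members. Multiplied by gene length, 100% of values above 0 were whole numbers of a per-library unit (within 0.01 of a read), and the reads behind each value follow from that. The depth behind the FPKM was 1.02 to 1.11 times the recovered reads in Bcas2 cKO libraries and 0.89 to 1.02 times in control libraries. Median-of-ratios factors of the deposited FPKM were equal (1.01) in all 6 libraries. That scaling therefore changes nothing and is no separate check. All pairs of libraries differed beyond sampling noise (chi-square per degree of freedom at least 13.6).

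Genes averaging 1 FPKM or more entered limma 3.58.1 (lmFit, eBayes with trend, R 4.3.3) as log2(FPKM + 1). Fold changes on this scale understate the change of low genes. The same fit was run on simulated reads in which all genes shared a common level of spread. Real genes differ in spread, so that run cannot vouch for the calls on these data. Genes were named if they were members, tied to a member by function, or among the up to 4 called genes of largest change in 1 of 13 pathway lists. Some genes that meet this rule, or that belong to a list, are not reported here. The members and lists were chosen with earlier results of these data known. Alternatives were a pseudocount of 0.1, other filters and scalings, no trend, library weights, voom on the recovered reads, leaving out each library and a replicate block. Likeness was the mean absolute difference of centred log2 profiles. Upstream sequences are from RefSeq, with 4 of the 7 members matched. Counts were tabulated in Python 3.11.15 with numpy 2.4.6, pandas 2.3.3 and scipy 1.17.1, and plotted with matplotlib 3.10.9.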

Additional observations from a re-analysis of the deposited data

How the results depend on the processing

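Cd81 rose under each alternative except the replicate block, and Ucn3 was lower under each, with its call lost with no filter beyond a mean above 0 (adjusted p 0.078). With a library left out 1 member rose in every fit and 0 to 1 fell, and with no filter 0 fell. Among the 3 members under the filter, 1 had groups without overlap (Sox9), 0 when rescaled without the hormone genes, and 1 to 2 when a library was left out. Over all genes 628 rose and 516 fell with no filter, 613 rose and 1247 fell when rescaled without the hormone genes, and 466 to 956 rose and 391 to 994 fell with a library left out. Of the 32 named genes that passed the test, 12 passed it in every leave-one-out fit. The sign of Neurog3 turned without Bcas2 cKO library 5 (-0.017) or control library 1 (-0.16), over a leave-one-out range of -0.16 to 0.30. That of Jag1 turned with quantile normalization (-0.028), when rescaled without the hormone genes (-0.035) and without control library 3, over a leave-one-out range of -0.088 to 0.099. That of Rbpj turned when rescaled (-0.023). The cause was not tested. The sample labels number both groups 1, 3 and 4, but among the table's columns only the numbers 3 and 4 occur in both groups. There, deviations from the group means correlated at -0.15 for number 3 and 0.045 for number 4, beside -0.13 to 0.12 for pairs of unlike number. With 3 libraries per group such correlations cannot show whether libraries of the same number are paired. With the number as a replicate block 352 genes rose and 186 fell, among them 0 members in either direction (limma adjusted p 0.074 for Cd81 and 0.091 for Ucn3), and Neurog3 was at -0.32. In that fit control library 1 and Bcas2 cKO library 5 were alone in their blocks. Its fold changes therefore rest on libraries 3 and 4 of each group only, and its lost calls cannot be read as an effect of pairing. Depth limits Gast, at 2 to 4 reads per library.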

Other observations

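Cd81 and Trpm5, the gene of largest fall on the maturity list, are neighbours, a pair singled out after their values were seen. Trpm5 (chromosome 7, 143069153 to 143094642, minus strand) ends 1219 bases from the end of Cd81, and Tssc4 (143069249 to 143071093, plus strand) lies inside it. Trpm5 had 3.53, 2.73 and 3.80 FPKM in Bcas2 cKO libraries 3, 4 and 5, against 28.8, 33.2 and 30.6 FPKM in control libraries 1, 3 and 4. Tssc4 was 48.0 ± 4.77 FPKM in Bcas2 cKO and 55.7 ± 0.32 FPKM in control (SD, n = 3 each) and did not pass the test (limma adjusted p 0.16). Cd81 starts 309 kb from the annotated start of Ins2 (142678656 to 142743381, minus strand), on the same chromosome. Near Hes1, the transcript 4632428C04Rik, 42954 bases away, fell (log2 fold change -0.63, limma adjusted p 0.034), and near Gast, Gm20394, 12700 bases away, rose (0.79, limma adjusted p 0.033).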
